A study of Mus musculus with 4 samples.

Results

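The Zfp900 series is a run of mouse zinc finger genes with consecutive names, from Zfp930 to Zfp964, and was taken here as every entry of the read count table whose symbol is Zfp9 followed by exactly 2 digits and an optional letter. The table holds 34 such genes among 30138 entries, all protein-coding by its biotype column and spread over 12 chromosomes. Primary mouse hepatocytes, cells isolated from liver, were taken through 4 stages meant to turn them into cells that make insulin, and each stage gave 1 RNA library. At S0 the cells were in serum-free medium with bFGF and EGF, growth factors given at 20 ng/ml each. The same growth factors and doses are given for S1 and S2. S1 came after 5-AZA, an inhibitor of DNA methylation (dose labelled 5 mM, 48 h), followed by TSA, which inhibits histone deacetylases (100 nM, 24 h). S2 came after ITS, a supplement of insulin, transferrin and selenium, together with RA, retinoic acid (dose labelled 2 mM, 7 days). S3 came after nicotinamide (10 mM, 7 days) in medium free of FGF and EGF. The labels give all 4 stages the same tissue and cell type, and no strain or age is used here.

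Zinc finger proteins of the KRAB class form a large and fast-evolving family of DNA-binding proteins in tetrapods. Their tandem C2H2 fingers bind DNA, often inside transposable elements, and their KRAB box recruits the corepressor TRIM28 (KAP1). TRIM28 in turn brings the histone H3 lysine 9 methyltransferase SETDB1 and heterochromatin protein 1, and DNA methylation can follow. DNA methylation and histone deacetylation are what the S1 agents inhibit. Their genes sit in clusters that arose by local duplication, and close relatives can share long stretches of sequence. Zfp932 is known from mouse embryonic stem cells, where together with its relative Gm15446 it represses endogenous retroviruses of the ERVK group. For the other members no individual role is stated. The deposited descriptions call the members zinc finger proteins, and whether each carries a KRAB box was not checked here.

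Reads in genes ranged from 22944047 in S2 to 27602967 in S0. Levels are given as CPM, read counts scaled to a fixed library total with TMM factors, and between genes as the authors' deposited RPKM, which also divides by gene length. Ratios between stages carry a 95% counting interval (exact Clopper-Pearson) in parentheses. With 1 library per stage a difference has no replicate check, no p-value was computed, and a difference between stages cannot be told apart from one between cultures or libraries. Hepatocyte markers were present at all stages, with Tat at 0 reads in every library as the exception among 10, and summed to 3656, 4066, 12319 and 6394 CPM in S0 to S3. The 10 macrophage markers summed to 13322, 3248, 706 and 684 CPM, so the starting culture held much macrophage RNA. These sums do not stand for each marker. In S1 over S0, 5 hepatocyte markers had their whole interval beyond 2-fold higher and 2 beyond 2-fold lower. Of the macrophage markers, 2 were higher and 6 lower by this rule (background 12.6% of all genes higher and 13.1% lower). The 10 cell cycle genes summed to 1440, 159, 75.5 and 338 CPM and the 10 neural markers to 16.1, 247, 21.4 and 31.7 CPM. Their part in the results on the zinc finger genes was not tested, and fewer cells of a type and less RNA per cell cannot be told apart in these bulk samples.

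The members were low but steadily detected genes. Of the 34, 32 reached 1 CPM, the limit for measurement, and all of these 32 did so at each of the 4 stages, so no member entered through a single stage. The remaining members were Zfp957, on chromosome 14, with 0 reads in every library, and Zfp936, on chromosome 7, with 0, 1, 4 and 0 reads in S0 to S3. A count of 0 allowed up to 0.103 to 0.137 CPM, depending on the library. Of all entries, 50.5% were measured, and of the 327 other genes named Zfp with a number, 90.5%. The median level of the 32 members was 7.71, 10.1, 8.52 and 10.6 CPM from S0 to S3. Over all 15222 genes measured the corresponding medians were 21.3, 18.5, 18.9 and 20.4 CPM. The stages separated the members only modestly. The highest stage of a member exceeded its lowest by 1.18-fold to 3.51-fold, with a median of 1.64-fold, against a median of 2.10-fold over all genes measured and 1.76-fold over the 296 other measured Zfp-numbered genes.

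**Figure D1:**
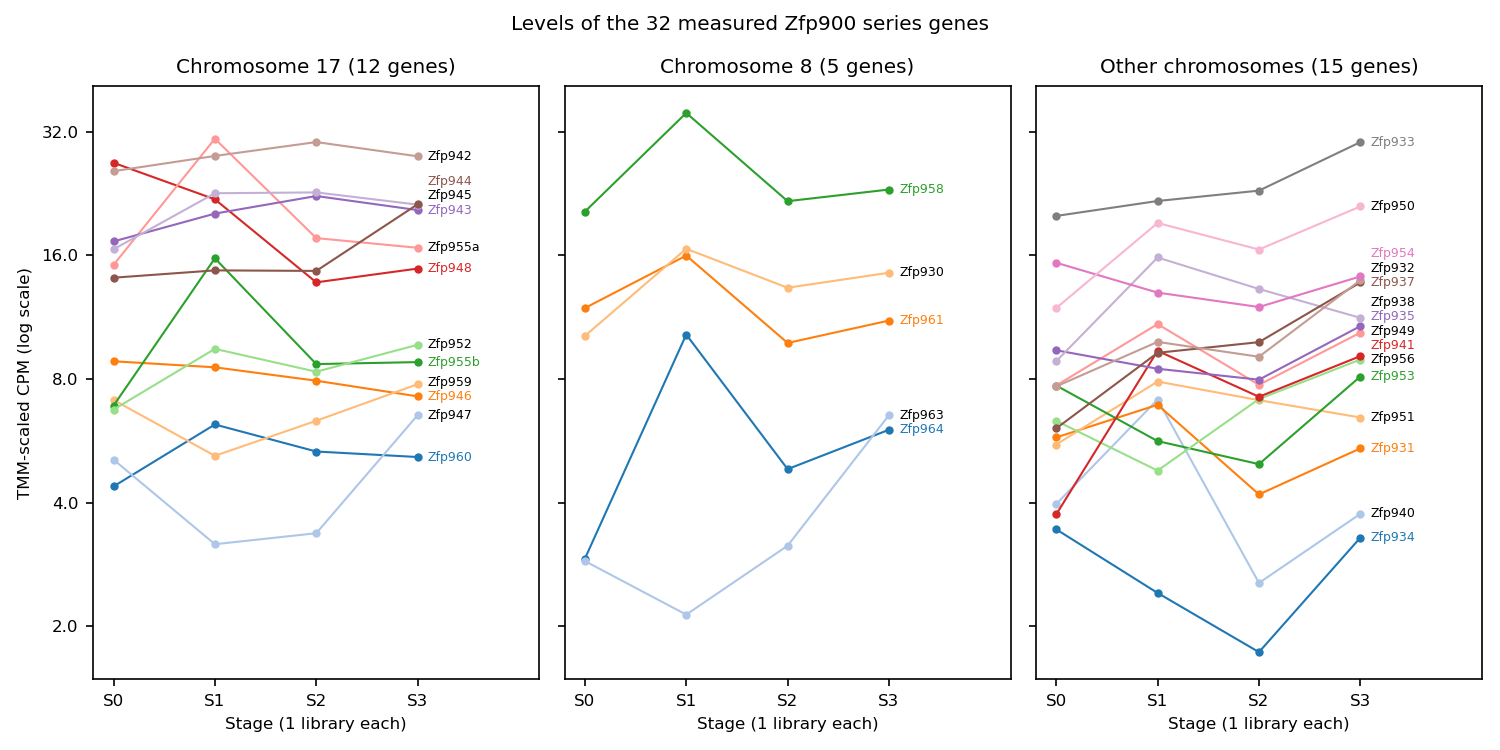
TMM-scaled CPM (log axis) of the 32 measured members at S0 to S3, 1 point per library joined by lines, in 3 panels by chromosome. Zfp958 reached the highest value, 35.5 CPM in S1, Zfp964 the widest span, 2.92 to 10.3 CPM, and many lines peak at S1 or S3.

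The lowest stage was S0 for 19 of the 32 members (59.4%), against 32.7% of all genes measured. The highest stage was S1 for 13 members (40.6%, background 27.9%) and S3 for 12 (37.5%, background 20.6%). Only 4 members stood highest in S0 (background 31.3%) and 3 in S2 (background 20.2%). Without TMM scaling 19 members stood highest in S1 (background 36.1%), 10 in S3 (background 20.9%), 3 in S0 (background 28.0%) and 0 in S2 (background 15.0%). The other Zfp-numbered genes were ordered otherwise in S1, with 150 of 296 (50.7%) lowest and 59 (19.9%) highest there. Of the 32 members, 4 (12.5%) were lowest in S1. In S0, 80 of the other Zfp-numbered genes (27.0%) were lowest. For the later stages they resembled the members, with 30 (10.1%) highest in S2 and 139 (47.0%) highest in S3. The high share for S3 and the low share for S2 are thus not particular to the members. The difference between these sets of genes was not tested.

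Per length, the highest values in S1 were those of Zfp958, Zfp955a and Zfp930. Zfp958, on chromosome 8, had RPKM values of 4.26, 8.34, 4.49 and 4.88 in S0 to S3. Zfp955a, on chromosome 17, had RPKM values of 3.25, 7.41, 3.75 and 3.62, and Zfp930, on chromosome 8, values of 2.70, 4.95, 3.51 and 3.90. All 3 stood highest in S1. Zfp948, on chromosome 17, had RPKM values of 3.61, 3.31, 1.83 and 2.02, and was thus above Zfp955a and Zfp930 in S0 but below both from S1 on. At the low end, Zfp964 had an RPKM of 0.236 in S0 and Zfp940 one of 0.239 in S2.

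The step with the inhibitors, S1 over S0, held the widest differences. Zfp964 (ENSMUSG00000091764, chromosome 8) had 78 reads in S0 and 298 in S1. Its level was 2.92, 10.3, 4.83 and 6.02 CPM from S0 to S3. S1 stood above all other stages, and the S1 level was 3.51-fold that of S0 (2.73 to 4.57). It was the 1 member whose whole interval lay beyond 2-fold higher, and 0 lay beyond 2-fold lower, which compares with 12.6% and 13.1% of all genes measured. Both member shares (3.12% and 0%) lay below the background. The members had fewer reads than the median gene, which widens their intervals, and the part of this in the low shares was not tested.

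With the weaker rule that the whole interval lies above or below no change, 18 of the 32 members were higher in S1 (56.2%, background 39.8%) and 7 were lower (21.9%, background 42.9%). Without TMM scaling the counts were 22 and 1, beside 47.4% and 35.6% of all genes. Leaving it out shifted the all-gene median log2 ratio by 0.18 for S1 over S0 and by -0.19 for S2 over S1. The median log2 ratio of the members was 0.39, a 1.31-fold higher level, beside -0.03 over all genes measured and -0.17 over the other Zfp-numbered genes. Under the 3 other scalings tried, the members' median lay 0.42 above that of all genes. Summed over the 32 members, 8719 reads in S0 and 12175 in S1 gave a 1.28-fold higher level in S1 (1.25 to 1.32). The same sum over the 296 other Zfp-numbered genes was 1.18-fold lower (1.17 to 1.19).

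**Figure D2:**
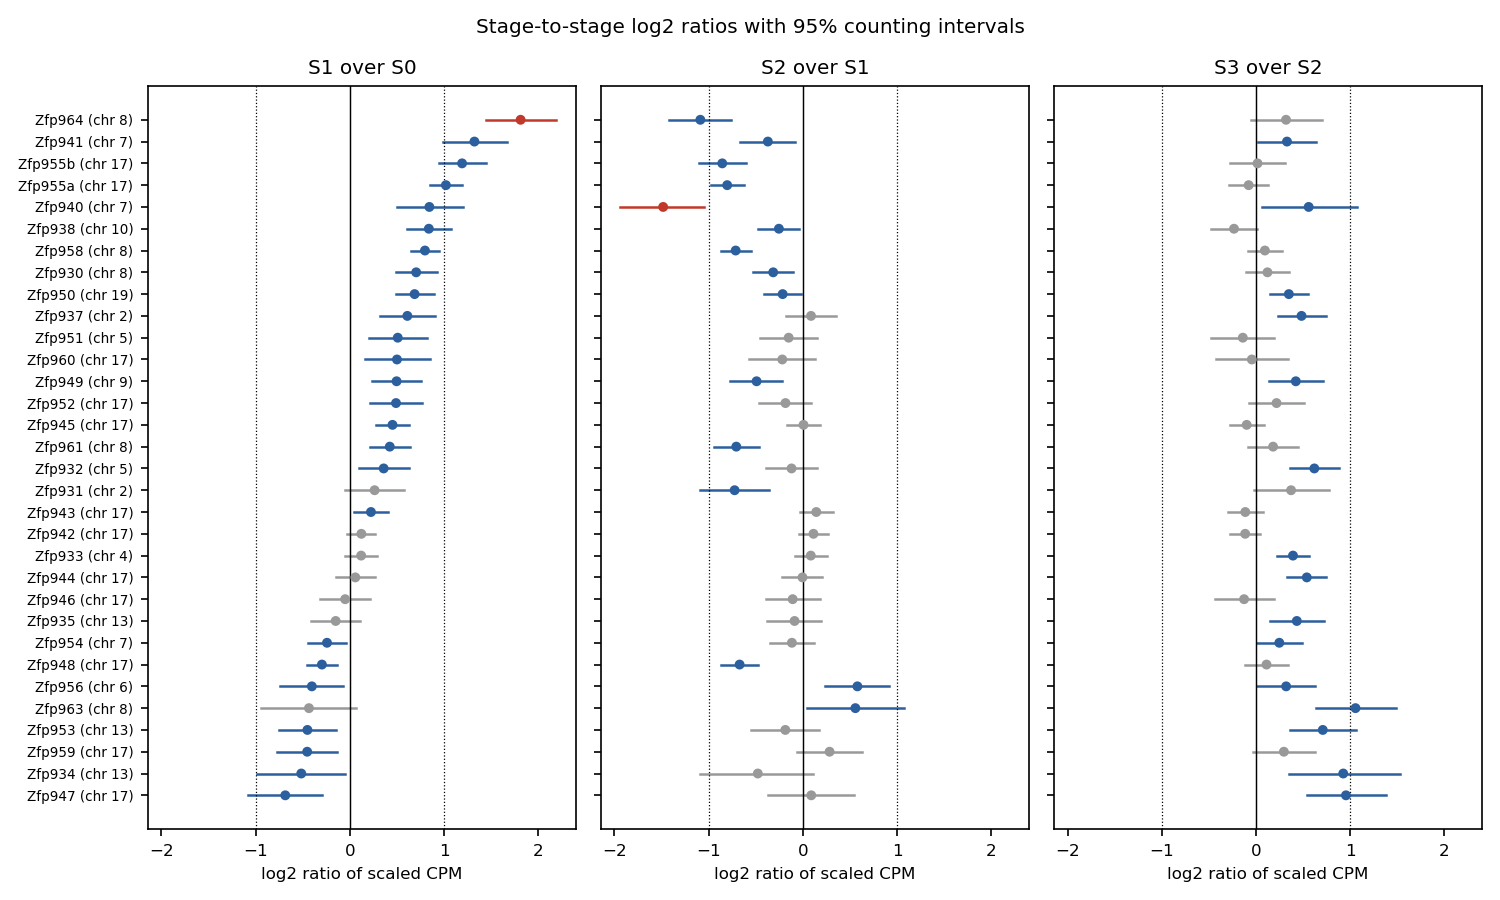
Log2 ratio of scaled CPM with its 95% counting interval for each of the 32 measured members in S1 over S0, S2 over S1 and S3 over S2, ordered by the first ratio. Red marks an interval wholly beyond 2-fold (dotted lines at 1 and -1), which holds for Zfp964 and Zfp940, blue one that excludes no change and grey one that holds it.

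After Zfp964, the widest S1 over S0 ratios belonged to Zfp941, Zfp955b and Zfp955a. Zfp941 (ENSMUSG00000060314, chromosome 7) stood at 3.74, 9.37, 7.24 and 9.09 CPM from S0 to S3. Its S1 level was 2.50-fold that of S0 (1.98 to 3.18), so the lower bound just missed 2-fold, and the later stages remained above S0. Zfp955b (ENSMUSG00000096910) stood at 6.89, 15.7, 8.70 and 8.79 CPM and was 2.28-fold higher in S1 (1.92 to 2.73). Zfp955a (ENSMUSG00000094441) stood at 15.2, 30.8, 17.6 and 16.7 CPM and was 2.03-fold higher in S1 (1.80 to 2.29). Both peaked in S1. In S3 the interval of Zfp955a over S0 held no change (0.956 to 1.27), whereas Zfp955b was still 1.28-fold higher (1.04 to 1.57). Without TMM scaling these 3 genes also passed the 2-fold limit, with log2 ratios of 1.49, 1.36 and 1.19.

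Zfp955a and Zfp955b are a duplicated pair on chromosome 17, separated in the RefSeq gene order by 1 protein-coding gene, the olfactory receptor gene Olfr63. Their promoter windows, 250 bases before to 50 after the annotated start in RefSeq (build GRCm38.p6), were identical over all 300 bases and lay on opposite strands. The windows span chr17:33255096-33255395 on the minus strand for Zfp955a and chr17:33289294-33289593 on the plus strand for Zfp955b. The shared sequence is shown with that of Zfp941, a member of similar ratio, because both hold several copies of CCAAT or of its reverse complement ATTGG, which are in capitals.
Zfp955a and Zfp955b: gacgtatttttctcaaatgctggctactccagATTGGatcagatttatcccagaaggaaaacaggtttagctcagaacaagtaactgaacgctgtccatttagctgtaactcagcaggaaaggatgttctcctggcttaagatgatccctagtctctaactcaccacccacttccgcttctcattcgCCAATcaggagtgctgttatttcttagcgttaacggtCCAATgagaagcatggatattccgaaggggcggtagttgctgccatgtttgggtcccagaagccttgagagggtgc
Zfp941: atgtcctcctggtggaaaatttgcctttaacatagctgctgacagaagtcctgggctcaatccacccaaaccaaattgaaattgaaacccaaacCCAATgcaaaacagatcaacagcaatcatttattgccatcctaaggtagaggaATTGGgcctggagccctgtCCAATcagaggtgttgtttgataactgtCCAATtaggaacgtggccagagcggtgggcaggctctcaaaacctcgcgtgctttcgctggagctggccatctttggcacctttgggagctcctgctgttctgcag
The Zfp955 window holds 3 such words and that of Zfp941, at chr7:140822129-140822428 on the minus strand, holds 4. Since the genes of the pair are near copies at least here, how reads were split between them is uncertain, and their like ratios are not independent measurements.

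The chromosome 8 members differed among themselves. Zfp958, highest per length at every stage, stood at 20.4, 35.5, 21.7 and 23.1 CPM from S0 to S3. S1 was its only high stage, 1.74-fold over S0 (1.57 to 1.93). Zfp930 stood at 10.2, 16.6, 13.3 and 14.5 CPM, with S1 1.63-fold over S0 (1.40 to 1.90), and did not come back to its S0 level. Zfp961 stood at 11.9, 16.0, 9.79 and 11.1 CPM, again highest in S1. Zfp963 had another order of stages. It stood at 2.88, 2.14, 3.14 and 6.53 CPM, with S1 lowest and S3 highest. Zfp963 and Zfp964 are separated in the gene order by a single protein-coding gene, Zfp869. Their S1 over S0 ratios differed, 3.51 for Zfp964 and 0.741 (0.521 to 1.05) for Zfp963, whose interval held no change. Summed over the 5 chromosome 8 members the S1 level was 1.67-fold that of S0 (1.56 to 1.78). Without these 5, the sum over the other 27 was 1.22-fold higher (1.18 to 1.26).

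Elsewhere in the genome, several single members were also higher in S1. Zfp940, on chromosome 7, stood at 3.97, 7.13, 2.55 and 3.76 CPM from S0 to S3. Zfp938, on chromosome 10, stood at 8.84, 15.8, 13.3 and 11.3 CPM and was 1.79-fold higher in S1 than S0 (1.53 to 2.10). Zfp950, on chromosome 19, stood at 11.9, 19.2, 16.5 and 21.0 CPM, with S1 1.61-fold over S0 (1.40 to 1.86). These genes share a high S1, but Zfp950 was higher still in S3. Zfp949, on chromosome 9, stood at 7.71, 10.9, 7.74 and 10.4 CPM, with S1 and S3 above S0 and S2. Zfp951, on chromosome 5, stood at 5.54, 7.89, 7.10 and 6.45 CPM, and Zfp931, on chromosome 2, at 5.77, 6.92, 4.19 and 5.42 CPM. For Zfp931 the S1 over S0 interval (0.969 to 1.49) held no change. Zfp932, the ERVK repressor gene on chromosome 5, stood at 7.67, 9.85, 9.06 and 13.9 CPM, a 1.28-fold higher level in S1 than S0 (1.07 to 1.54). Its relative Gm15446 had the same order of stages, with 5.99, 8.99, 7.56 and 10.6 CPM.

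A group of 7 members was lower in S1 than S0 with an interval below no change. The lowest ratio belonged to Zfp947, on chromosome 17, which stood at 5.09, 3.17, 3.37 and 6.53 CPM from S0 to S3 (1.61-fold lower in S1, 1.22 to 2.12). Zfp959, on the same chromosome, stood at 7.11, 5.20, 6.33 and 7.77 CPM. Both were back at or above their S0 level in S3. Zfp934 and Zfp953, on chromosome 13, stood at 3.44, 2.41, 1.73 and 3.29 CPM and at 7.71, 5.65, 4.96 and 8.11 CPM. Both were lower in S1, and the intervals of their S2 over S1 ratios held no change. The third chromosome 13 member, Zfp935, which adjoins Zfp934 in the gene order, stood at 9.40, 8.47, 7.97 and 10.8 CPM, the same order of S0 to S2 with smaller steps. Of the 3 chromosome 13 members, 0 had an interval above no change, and their summed level was 1.24-fold lower in S1 (1.10 to 1.41). The other members lower in S1 were Zfp956 on chromosome 6 (6.33, 4.79, 7.15 and 8.92 CPM), Zfp954 on chromosome 7, which was 1.18-fold lower (1.03 to 1.36), and Zfp948, 1.23-fold lower (1.10 to 1.37). Without TMM scaling, 1 of these 7 intervals still lay below no change.

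**Figure D3:**
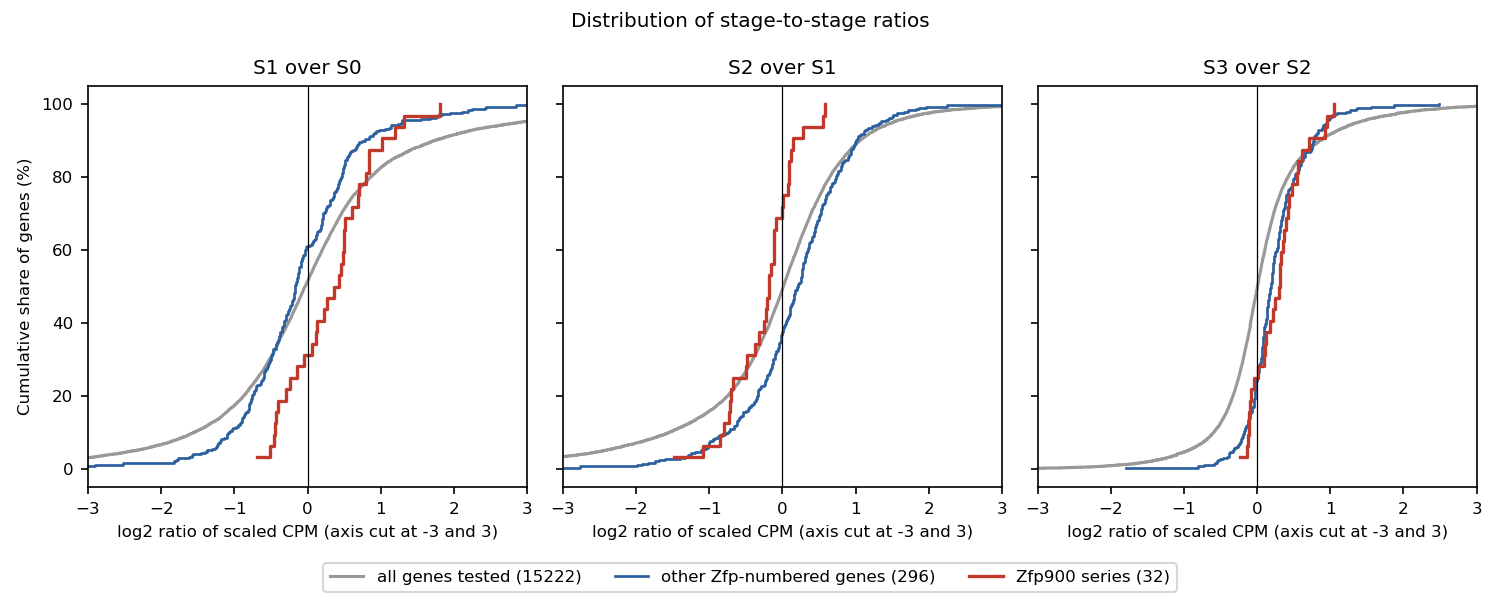
Cumulative share of genes by log2 ratio of scaled CPM in 3 comparisons, for the 32 measured members (red), the 296 other Zfp-numbered genes (blue) and all 15222 genes measured (grey). Through its middle the red curve lies to the right of both others in S1 over S0 and to the left in S2 over S1, with member medians of 0.39 and -0.19.

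Chromosome 17 held 12 members, 7 of them in 1 stretch of the gene order that runs from Zfp948 to Zfp945 and also holds other zinc finger genes and 2 pheromone receptor genes. Zfp942 and Zfp943 adjoin each other and were among the steadiest members. Zfp942 (ENSMUSG00000071267) stood at 25.6, 27.9, 30.2 and 27.9 CPM from S0 to S3. Zfp943 (ENSMUSG00000053347) stood at 17.3, 20.2, 22.3 and 20.6 CPM. Both had their lowest level in S0 and, with TMM scaling, their highest in S2. Without it their S2 over S1 log2 ratios were -0.07 and -0.04, so the S2 peak depends on the scaling. With TMM scaling the log2 ratios were 0.12 and 0.23 for S1 over S0, 0.11 and 0.14 for S2 over S1, and -0.12 and -0.11 for S3 over S2. Their promoter windows overlapped by 194 bases on opposite strands, which makes them a head-to-head pair, and whether counting used the strand is not given in the sources used here. Zfp944, in the same stretch, has a window close to that of Zfp942. Aligned with an offset, 274 bases were identical, 1 differed and 50 positions faced a gap. The 3 windows are shown for this shared sequence, with each CG dinucleotide, the site of DNA methylation, in capitals.
Zfp942: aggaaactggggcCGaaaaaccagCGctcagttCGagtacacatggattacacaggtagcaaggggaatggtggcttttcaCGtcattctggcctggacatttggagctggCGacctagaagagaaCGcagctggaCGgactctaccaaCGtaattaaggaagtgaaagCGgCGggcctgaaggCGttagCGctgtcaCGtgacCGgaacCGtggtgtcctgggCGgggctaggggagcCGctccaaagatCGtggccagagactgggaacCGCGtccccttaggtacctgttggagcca
Zfp943: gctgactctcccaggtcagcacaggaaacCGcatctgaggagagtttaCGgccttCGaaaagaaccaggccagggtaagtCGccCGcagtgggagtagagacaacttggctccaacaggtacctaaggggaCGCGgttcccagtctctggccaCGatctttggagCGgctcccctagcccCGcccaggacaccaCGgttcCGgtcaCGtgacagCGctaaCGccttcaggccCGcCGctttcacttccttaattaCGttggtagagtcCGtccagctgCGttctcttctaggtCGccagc
Zfp944: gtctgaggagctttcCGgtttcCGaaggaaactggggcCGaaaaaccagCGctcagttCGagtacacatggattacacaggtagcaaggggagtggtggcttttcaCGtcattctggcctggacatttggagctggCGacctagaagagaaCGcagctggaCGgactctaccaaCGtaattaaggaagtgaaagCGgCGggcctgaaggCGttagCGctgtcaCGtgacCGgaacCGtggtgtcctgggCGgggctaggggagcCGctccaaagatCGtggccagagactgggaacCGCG
They lie at chr17:21962415-21962714 (minus strand), chr17:21962309-21962608 (plus strand) and chr17:22361351-22361650 (minus strand) in GRCm38.p6 and hold 20, 21 and 22 CG. Zfp944 stood at 14.1, 14.7, 14.7 and 21.3 CPM. Its S0 to S2 levels were nearly equal, and in S3 it was 1.45-fold over S2 (1.26 to 1.68), where the ratio for Zfp942 was 0.923 (0.828 to 1.03).

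The rest of the chromosome 17 members varied little. Zfp945 stood at 16.5, 22.7, 22.8 and 21.3 CPM from S0 to S3, a single step after S0, 1.37-fold for S1 (1.21 to 1.55), followed by level values. Zfp946 stood at 8.84, 8.54, 7.92 and 7.26 CPM, and each of its intervals held no change. Zfp952 stood at 6.74, 9.47, 8.33 and 9.69 CPM and Zfp960 at 4.38, 6.20, 5.33 and 5.17 CPM, both lowest in S0. Zfp948, at the edge of the stretch, was the exception with 26.9, 21.9, 13.8 and 14.9 CPM. It was the only member whose S3 level had an interval below that of S0, 1.81-fold lower (1.59 to 2.06), although DESeq2 size factors and TMM over protein-coding genes each put 2 members there.

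The promoter windows of the members were compared with those of all genes. RefSeq windows were matched for 31 of the 34 members by symbol, and Zfp930, Zfp934 and Zfp960 had no entry. The median count of CG in the 36 member windows was 9 (range 3 to 24), against 16 in 328 windows of the other Zfp-numbered genes and 7 in all 32851 windows. CCAAT on either strand (CCAAT or ATTGG) occurred in a window of 21 of the 31 members (67.7%), of 123 of 266 other Zfp-numbered genes (46.2%) and of 11096 of 27025 genes (41.1%). Among the 29 measured members with a window, the 20 with the word had a median log2 ratio of 0.50 in S1 over S0 (range -0.68 to 1.81), with 13 intervals above no change (background 39.8%) and 4 below (background 42.9%). The 9 without it had a median of 0.12 (range -0.45 to 0.50), with 3 above and 2 below. The ranges overlap, and a word in a window is no evidence that a factor binds there. The windows are also not independent. Of 465 pairs of members, 19 had windows at 60% identity or more, and relatives that share sequence can share the word.

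The CG count showed no visible order with the S1 ratio across the 29 members (Pearson r of 0.03 and Spearman rho of -0.18, as a description across genes that share 2 libraries). The member with most CG, Zfp964, had the widest ratio, yet Zfp942, Zfp943, Zfp944 and Zfp961, with 20 to 22, had ratios of 1.09, 1.17, 1.04 and 1.34. The window of Zfp964 is shown with that of Zfp940, the other member past the 2-fold limit in a comparison, with CG in capitals.
Zfp964: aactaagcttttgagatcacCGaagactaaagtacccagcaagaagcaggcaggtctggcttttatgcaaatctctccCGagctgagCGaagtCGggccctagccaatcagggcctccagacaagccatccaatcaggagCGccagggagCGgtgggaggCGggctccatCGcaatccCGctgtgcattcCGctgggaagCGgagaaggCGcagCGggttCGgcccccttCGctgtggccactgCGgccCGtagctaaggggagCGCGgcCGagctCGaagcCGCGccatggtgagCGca
Zfp940: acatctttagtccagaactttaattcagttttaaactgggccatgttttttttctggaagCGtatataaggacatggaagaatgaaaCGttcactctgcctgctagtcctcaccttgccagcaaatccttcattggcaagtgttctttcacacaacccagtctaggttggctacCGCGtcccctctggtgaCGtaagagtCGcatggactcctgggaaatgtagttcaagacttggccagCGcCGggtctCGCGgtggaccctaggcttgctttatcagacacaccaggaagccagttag
The Zfp964 window, chr8:69654306-69654605 on the plus strand, holds 24 CG and has 62.7% G or C. The Zfp940 window, chr7:29853599-29853898 on the minus strand, holds 10 CG and has 48.7% G or C.

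**Figure D4:**
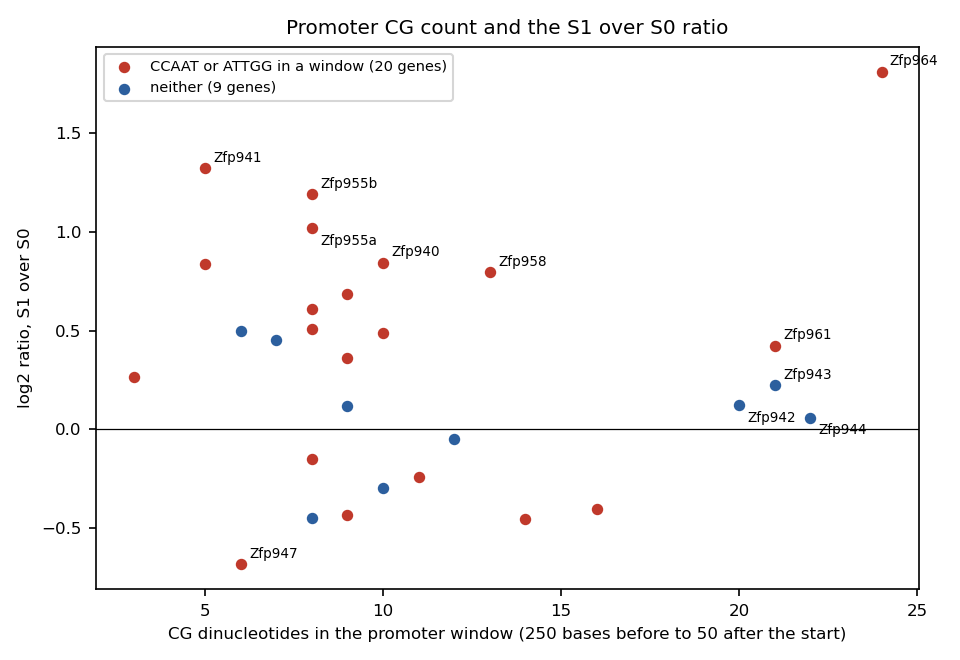
Number of CG dinucleotides in the promoter window (for genes with several windows, the highest count) against the log2 ratio of S1 over S0 for the 29 measured members with a window. Red points hold CCAAT or ATTGG (20 genes) and blue points neither (9 genes), and the points with 20 CG or more range from 0.06 (Zfp944) to 1.81 (Zfp964).

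In the retinoic acid step, S2 over S1, the median ratio of the members lay below no change. Of the 32 intervals, 17 held no change, against 3567 of all 15222 genes measured. Zfp940 (ENSMUSG00000050855), with 207 reads in S1 and 56 in S2, fell 2.80-fold (2.07 to 3.83) and was the 1 member past the 2-fold limit, with 0 on the higher side. The background was 10.1% of all genes lower and 6.71% higher. Its S2 level of 2.55 CPM was the lowest of its 4 stages. By the weaker rule 13 members were lower (40.6%, background 37.2%), near the background, and 2 were higher (6.25%, background 39.3%), below it. Without TMM scaling these counts were 22 and 1, beside 47.2% and 29.7% of all genes. The median log2 ratio was -0.19 for the members, 0.01 for all genes measured and 0.21 for the other Zfp-numbered genes. Both comparisons use the S1 library, so its values enter them in opposite directions, and in the same way this step and the next share the S2 library.

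The members lower in S2 were largely those with a high S1. Zfp964 was 2.13-fold lower (1.70 to 2.68), Zfp955b 1.81-fold (1.53 to 2.15) and Zfp955a 1.75-fold (1.55 to 1.97). Next came Zfp931, 1.65-fold lower (1.28 to 2.14), Zfp958, 1.64-fold (1.47 to 1.83), and Zfp961, 1.63-fold (1.39 to 1.93). Zfp948, which had been lower in S1 as well, was 1.59-fold lower (1.39 to 1.83). The 2 higher members were Zfp956, 1.49-fold (1.18 to 1.89), and Zfp963, 1.47-fold (1.03 to 2.11). Under TMM scaling over protein-coding genes alone, 1 of the 2 kept an interval above no change. Zfp941 and Zfp938 showed smaller differences, 1.29-fold (1.06 to 1.58) and 1.19-fold (1.03 to 1.39) lower, and so stayed above S0.

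In the nicotinamide step, S3 over S2, 0 members passed the 2-fold limit in either direction, against 3.69% of all genes higher and 1.14% lower. By the weaker rule 15 members were higher (46.9%, background 28.9%) and 0 lower (background 27.7%), and the median log2 ratio was 0.31 beside 0.01 for all genes and 0.19 for the other Zfp-numbered genes. Of the other Zfp-numbered genes 121 of 296 were higher (40.9%) and 23 lower (7.77%). The widest ratio was that of Zfp963, 2.08-fold (1.55 to 2.80), followed by Zfp947, 1.94-fold (1.46 to 2.59), Zfp934, 1.90-fold (1.27 to 2.88), and Zfp953, 1.63-fold (1.28 to 2.09). These 4 were the members whose ratio in S1 over S0 was at the low end, with Zfp959. All 3 members on chromosome 13 were higher, with a summed ratio of 1.51 (1.31 to 1.74). On chromosome 17, 2 of 12 were, Zfp944 and Zfp947, and the summed ratio was 1.04 (0.994 to 1.09).

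Over the whole protocol, S3 over S0, 0 members passed the 2-fold limit, against 9.20% of all genes higher and 10.5% lower. By the weaker rule 18 of the 32 were higher (56.2%, background 39.6%) and 1 was lower (background 36.1%), and with DESeq2 size factors 16 and 2, beside 37.0% and 38.5% of all genes. Of the other Zfp-numbered genes 157 of 296 were higher (53.0%) and 48 lower (16.2%). The median log2 ratio was 0.30 for the members, 0.29 for the other Zfp-numbered genes and 0.05 for all genes. Zfp941 was 2.43-fold higher (1.91 to 3.11), Zfp963 2.27-fold (1.71 to 3.02), Zfp964 2.06-fold (1.55 to 2.75) and Zfp932 1.81-fold (1.52 to 2.17). Zfp937 (ENSMUSG00000060336, chromosome 2) stood at 6.06, 9.26, 9.84 and 13.7 CPM from S0 to S3, so with TMM scaling each stage was above the one before, although S2 was below S1 without it. The S2 over S1 interval of Zfp937 held no change (0.883 to 1.27). In S3 Zfp937 was 2.27-fold higher than in S0 (1.87 to 2.75). Zfp933, on chromosome 4, showed the same order with TMM scaling, with 20.0, 21.7, 23.0 and 30.2 CPM. Without it S2 was likewise below S1, with a log2 ratio of -0.1. With TMM scaling the Zfp933 intervals for S1 over S0 (0.967 to 1.22) and S2 over S1 (0.941 to 1.19) held no change. The S3 level of Zfp933 was 1.51-fold that of S0 (1.35 to 1.70).

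Some of the partners through which KRAB proteins act were lower in S1. Of 37 listed genes of the corepressor complexes, heterochromatin and DNA methylation, 35 were found and measured, and in S1 over S0 11 were lower beyond 2-fold (background 13.1%) and 0 higher (background 12.6%). These counts used TMM scaling and were not repeated under the others. Trim28, Ehmt2 and Cbx5 passed narrowly, with lower bounds of 2.09-fold, 2.14-fold and 2.19-fold. The TMM factors of S0 and S1 (0.968 and 1.089) enter each of these ratios. Without them these bounds would fall below 2-fold, so the passing of Trim28, Ehmt2 and Cbx5 depends on the scaling. Leaving TMM scaling out shifted the all-gene median log2 ratio by 0.18 for S1 over S0. In the same step the cell cycle genes went from 1440 to 159 CPM in sum, with 10 of 10 lower beyond 2-fold, and their part in the levels of the partners was not tested. Trim28, the corepressor that KRAB boxes recruit, stood at 302, 139, 231 and 301 CPM from S0 to S3. It was 2.17-fold lower in S1 (2.09 to 2.25) and in S3 back at its S0 level. Cbx5, which encodes heterochromatin protein 1 alpha, stood at 295, 130, 267 and 335 CPM, in the same order of stages from S0 to S2. Setdb1, the methyltransferase brought in by TRIM28, stood at 68.8, 50.6, 45.8 and 50.5 CPM and did not pass the 2-fold limit.

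The other lower partners fell into a group that recovered by S2 or S3 and a group that did not. Chd3, a nucleosome remodeller that binds TRIM28, stood at 132, 31.1, 110 and 169 CPM. The histone methyltransferase gene Ehmt2 stood at 206, 91.9, 195 and 199 CPM, and Suv420h1, which methylates histone H4, at 56.8, 15.5, 53.2 and 53.6 CPM. These 3 were the partners higher beyond 2-fold in S2 over S1 (background 6.71%). Dnmt1, the maintenance DNA methyltransferase, stood at 235, 80.8, 50.1 and 89.7 CPM, and its partner Uhrf1 at 131, 18.7, 4.10 and 32.4 CPM. Both were still lower beyond 2-fold in S3 than S0, as was Atf7ip2. These were 3 of the 35 measured partners, a share below the background of 10.5%. Uhrf1 and the chromatin remodeller gene Hells, at 67.1, 16.1, 9.47 and 36.5 CPM, were the partners higher beyond 2-fold in S3 over S2 (background 3.69%), a step in which the cell cycle genes went from 75.5 to 338 CPM in sum. Uhrf1 was also the 1 partner lower beyond 2-fold in S2 over S1 (background 10.1%). Suv39h1, a histone H3 lysine 9 methyltransferase gene, was 3.18-fold lower in S1 (2.82 to 3.61) and Dnmt3a, a de novo DNA methyltransferase gene, 2.81-fold lower (2.61 to 3.02), which completes the 11. In S3 they stood at 22.9 and 70.9 CPM, below their S0 levels of 38.1 and 101 CPM.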

How the data were processed

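Total RNA of 4 culture stages was sequenced as 1 library each. Per the labels' protocols, a stranded total RNA kit was used, and per the submitters' processing notes, which name bcl2fastq, mm9 is the genome build. Aligner, counting program, annotation and strand setting were not given in the sources used here, so reads of overlapping genes and of close paralogs, frequent in this family, may be shared or split. The authors deposited raw read counts per gene and RPKM values per gene, per the file headers, and the RPKM served only to compare genes and as an alternative.

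Counts were scaled to CPM with TMM factors (0.968, 1.089, 0.957 and 0.991 for S0 to S3) from edgeR 4.0.16 in R 4.3.3. A gene was called measured if any library reached 1 CPM (15222 genes). Ratios have exact 95% Clopper-Pearson intervals (scipy 1.17.1, Python 3.11.15), which cover counting error only, since reads without molecular identifiers are not independent molecules. Passing the limit required the entire interval to exceed 2-fold. A count of 0 was read against a floor of 3 reads. The interval method was tested on simulated counts. Promoter windows came from RefSeq (GRCm38.p6) and were aligned globally with Biopython 1.88. That build differs from mm9, so gene coordinates are not given. Finger number, KRAB boxes and protein identity of the members had been planned and were not analysed here. Every measured member was eligible to be named, with full values for those past the 2-fold limit in a comparison and the 10 with the highest mean CPM. The members, the lists of repression partners, known KRAB genes and markers, and the 8 alternatives were chosen with earlier results of these data known.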

Additional observations from a re-analysis of the deposited data

How the results depend on the processing

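With 1 library per stage, no library could be left out and no paired analysis was possible because each stage has 1 library. The members' median log2 ratio kept its sign in all 4 comparisons under all 8 alternatives. The count of members past the limit in S1 over S0, 1 in the report, was 4 without TMM scaling, 6 with a 1.5-fold limit, 4 with deposited RPKM plus 0.1 and 0 with RPKM plus 1. In S2 over S1 the count of 1 became 4 with the 1.5-fold limit, 2 with RPKM plus 0.1 and 0 with RPKM plus 1. In S3 over S2 the count of 0 became 1 with the 1.5-fold limit, and in S3 over S0 it became 7 with the 1.5-fold limit and 3 with RPKM plus 0.1. The share of all genes past the limit was not counted under these alternatives, and it can rise with them too. The changed counts therefore have no background and show only how far the member counts depend on the setting. The RPKM alternatives use no interval, and a pseudocount of 1 is close to the level of most members, which pulls ratios toward 0. On that last scale Zfp964 in S1 over S0 (log2 0.65) and Zfp940 in S2 over S1 (-0.50) no longer passed. No ratio past the limit changed sign, but without TMM scaling 2 members changed sign in S1 over S0, 6 in S2 over S1 and 1 in S3 over S2. DESeq2 1.42.0 size factors, TMM over protein-coding genes and both other filters left the counts of members past the limit as they were. The DESeq2 and protein-coding scalings each changed the sign of 1 member, in S2 over S1. Members with under 100 reads in a library, such as Zfp964, Zfp963 and Zfp934, have wide intervals.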

Other observations

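Among KRAB zinc finger genes with a known role, 13 of 16 listed were measured. In S1 over S0, 0 passed the 2-fold limit in either direction (background 12.6% higher and 13.1% lower), and their median log2 ratio was -0.30. In S2 over S1, Zfp809, which silences murine leukaemia viruses, was 3.66-fold higher (3.25 to 4.11) at 49.7 CPM, and Zfp354c 2.97-fold higher (2.32 to 3.83), while Zfp13 was 3.23-fold lower (2.50 to 4.21). In that step the limit was thus passed by 2 of the 13 on the higher side (background 6.71%) and 1 on the lower (background 10.1%). In S3 over S2, 0 passed the limit (background 3.69% higher and 1.14% lower). In S3 over S0 only Zfp354c did, 3.82-fold higher (3.06 to 4.80), beside 9.20% of all genes higher and 10.5% lower. With 13 genes, such counts are too few to set apart from the background. Zfp57, which protects methylation at imprinted loci, stood at 16.5, 18.5, 19.2 and 24.1 CPM in S0 to S3, and its partner in that role, Zfp445, at 52.0, 44.9, 83.9 and 74.6 CPM. Rsl1, a regulator of sex-biased liver genes, stood at 4.83, 3.17, 3.69 and 8.32 CPM, lowest in S1 and highest in S3.

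Malat1, the long non-coding RNA in the study's title, stood at 4602, 18013, 17866 and 8340 CPM in S0 to S3, and the nuclear RNA Neat1 at 312, 943, 1290 and 463 CPM. Both were higher in S1 than S0, as were 18 of the 32 members by the weaker rule (56.2%, background 39.8%). Both stayed high in S2. By the same rule 13 members were lower in S2 than S1 (40.6%, background 37.2%), near the background. Fibroblast and stellate cell markers summed to 5007, 1128, 1413 and 2600 CPM, biliary markers to 1576, 1571, 588 and 609 CPM, and endothelial markers to 21.6, 15.1, 5.69 and 6.19 CPM. These sums do not stand for each gene of a list. In S3 over S0 the median log2 ratio was 1.64 for the fibroblast and stellate markers and 0.38 for the biliary markers, although both sums were lower. For the endothelial markers it was -1.7.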
